A study of Mus musculus with 4 samples.

Results

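The SOCS family comprises 8 genes, *Cish* and *Socs1* to *Socs7*, which encode the suppressors of cytokine signaling. They were identified by gene symbol in the array annotation, and all 8 were found among the 19938 genes with a probe set of their own. Together they had 12 probe sets, and each gene is described by its brightest probe set, with the others shown beside it. Transcripts were measured on whole-transcript arrays in wild-type C57BL/6 CD8+ T cells from spleen and lymph nodes, purified with magnetic beads by negative selection and kept in culture for 2 days. Tc17 cultures, named for their IL-17 production, received IL-6, TGF-β, IL-2 and an antibody to IFN-γ. CTL cultures, short for cytotoxic T lymphocytes, had the same IL-2 and antibody to IFN-γ but neither IL-6 nor TGF-β. There were 2 Tc17 and 2 CTL arrays, described as biological replicates. Whether these were separate animals or separate cultures is not stated, so the spread between these samples may be technical. The p-values and intervals weigh the spread of each gene's own arrays together with a spread pooled over all genes tested. Per the study's methods, Tc17 cells were primed with antibodies to CD3 and CD28, and the mice were age- and sex-matched adults.

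SOCS proteins close a negative feedback loop on cytokine receptors. A cytokine activates the JAK kinases bound to its receptor, the JAKs phosphorylate STAT transcription factors, and the STATs switch on SOCS genes, whose products then dampen the same signal. Each protein binds phosphotyrosine through an SH2 domain and recruits a ubiquitin ligase through the C-terminal SOCS box. SOCS1 and SOCS3 also inhibit JAK kinases directly. CIS (the product of *Cish*), SOCS1, SOCS2 and SOCS3 are cytokine-induced, whereas SOCS4 to SOCS7 are better known as regulators of growth factor receptors. In T cells *Socs3* is a classic target of STAT3 after IL-6, *Cish* and *Socs2* are targets of STAT5 after IL-2, and *Socs1* is induced by interferons and by cytokines of the common gamma chain.

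The start regions of 3 of these genes are shown because they carry the type of site that STAT or interferon regulatory factors bind. RefSeq windows (GRCm38.p6) of 300 bases, from 250 before to 50 after an annotated start, were at hand for 4 members (*Cish*, *Socs1*, *Socs3* and *Socs4*). For *Cish*, *Socs1* and *Socs4* this start is the 5′ end of the RefSeq gene record, whereas the *Socs3* record reaches further upstream and its window lies wholly inside it. They were searched on both strands for TTCNNNGAA, the palindrome that STAT dimers recognise, for TTC and GAA with 4 bases between them, the wider form preferred by STAT6, and for the interferon-stimulated repeat, a pair of GAAA with 2 bases between them, which was added after the sequences had been read. Matches are in capitals. The *Cish* stretch runs from base -80 to base 20, counted from this start (chr9:107296579-107296678, plus strand), the *Socs3* stretch spans bases -165 to -136 of its window's start (chr11:117969502-117969531, minus strand), within the gene record, and the *Socs1* stretch takes the 100 bases before the start (chr16:10785537-10785636, minus strand).
Cish: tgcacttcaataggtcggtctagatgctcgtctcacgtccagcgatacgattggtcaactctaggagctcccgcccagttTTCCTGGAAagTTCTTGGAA
Socs3: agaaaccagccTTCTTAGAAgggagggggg
Socs1: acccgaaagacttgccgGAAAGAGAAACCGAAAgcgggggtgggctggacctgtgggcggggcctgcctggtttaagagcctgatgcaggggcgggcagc

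*Cish* held 2 copies of TTCNNNGAA side by side in the first 20 bases of the annotated gene, and *Socs3* held 1. *Socs1* held none in its window but had 2 overlapping copies of the GAAA repeat, and *Socs4* had no match to any of the 3 motifs. The wider STAT6 form was found in none of the 4 windows. Among 32544 RefSeq windows of this length, 8.33% held TTCNNNGAA at least once and 0.461% held at least 2 copies. The wider form occurred in 6.98% of the windows and the GAAA repeat in 3.45%, with at least 2 copies of that repeat in 0.221%. These matches describe the letters and do not show that a factor was bound.

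Values are log2 intensities after RMA normalisation, and their medians ranged from 3.18 to 3.2 over the 4 arrays. Cytokine genes followed the labels: *Il17f* stood at 9.22 and 8.70 in the Tc17 arrays, against 2.94 and 3.35 in the CTL arrays, and *Ifng* at 5.91 and 6.24 in Tc17 against 10.57 and 10.08 in CTL. The 6 CD8+ T cell markers were bright, between 8.44 and 10.63 in Tc17 and between 7.34 and 9.63 in CTL, and 5 of them, *Cd3e* and *Cd8a* included, were higher in Tc17. *Cd4* was dim, at 3.06 in both groups. Of 30 markers of other cell types 28 had a value, with a mean over these markers of 2.87 and 2.82 in the Tc17 arrays and 2.81 and 2.72 in the CTL arrays. Only 17 of them were bright enough to be tested. The brightest was *Cd79b* (5.08 in Tc17 and 4.65 in CTL). The only one past the threshold was *Ly6g*, 1 of 4 neutrophil markers, higher in Tc17 at 3.94 against 2.36 in CTL. Its CTL arrays (2.46 and 2.27) were both under the level needed for testing, so it was tested only because of its Tc17 values. The size of its difference is therefore uncertain. The neutrophil markers *S100a8*, *Mpo* and *S100a9* did not pass, with log2 differences of -0.12, -0.20 and 0.10 between Tc17 and CTL. The part of these markers in the SOCS results was not tested. In bulk RNA, fewer expressing cells and less RNA per cell cannot be told apart.

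Tc17 cells carried more *Socs3* and less *Socs2* and *Cish* than CTLs, while the remaining 5 family members did not pass the test. By their main probe sets *Socs3* was 3.72-fold higher, *Socs2* 2.46-fold lower and *Cish* 1.61-fold lower. The other probe sets of *Socs3* (1.28-fold higher) and *Socs2* (1.40-fold lower) had the same sign but did not pass the threshold. All 8 genes passed the filter on dim genes, whose level was 2.59, so 3 of 8 were called at a limma adjusted p under 0.05, against 15.7% of the 14953 genes tested (8.22% higher and 7.44% lower in Tc17). The median log2 difference over the 8 genes was 0.02, and so was that over all genes. The arrays of both groups were fully separated for 7 of the 8 members, against 54.4% of all genes, so separation alone was not unusual.

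*Socs3*, whose product binds the shared IL-6 receptor chain gp130 and shuts off STAT3, was the family member that rose. Its main probe set (10393449) read 7.51 and 7.65 in the Tc17 arrays, against 5.87 and 5.50 in the CTL arrays. Both Tc17 arrays lay above both CTL arrays, and the 4 possible differences between a Tc17 and a CTL array ranged from 1.64 to 2.15. The log2 difference was 1.89 ± 0.15 (± SE, n = 2 arrays per group, 95% interval 1.56 to 2.23, limma adjusted p = 1.42e-05). This was the 55th largest increase among all genes tested. The call held in all 12 alternative settings, with differences from 1.13 to 2.08.

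A second probe set assigned to *Socs3* (10383010), annotated through 1 accession and through none of the 3 accessions of the main one, gave a much smaller difference. It read 4.82 and 4.31 in Tc17 against 4.25 and 4.16 in CTL. The groups did not overlap, but the Tc17 arrays differed from each other by more than Tc17 replicate 2 differed from CTL. Put into the fit in place of the main probe set, it gave 0.36 ± 0.17 (95% interval -0.01 to 0.72, limma adjusted p = 0.195). The mean of both probe sets gave 1.13.

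*Socs2* encodes a STAT5-induced regulator best known for limiting growth hormone signaling, and it showed the largest decrease of the family. The main probe set (10394674) read 5.42 and 4.59 in the Tc17 arrays, against 6.20 and 6.41 in the CTL arrays. The Tc17 arrays were unequal, yet both lay below both CTL arrays, with differences between single arrays from -1.82 to -0.78. The log2 difference was -1.30 ± 0.22 (95% interval -1.79 to -0.81, limma adjusted p = 0.00222), the 81st largest decrease of all genes tested. Without Tc17 replicate 2, the lower array, it was -0.89, and without Tc17 replicate 1 it was -1.72. The call was lost when all 35557 rows of the table were tested (limma adjusted p = 0.112).

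The other probe set of *Socs2* (10372069) also read lower in Tc17, at 4.09 and 4.05 against 4.79 and 4.34 in CTL. Here the Tc17 arrays lay close together and the CTL arrays apart, the opposite of the main probe set. Its log2 difference in the fit was -0.49 ± 0.16 (95% interval -0.84 to -0.15, limma adjusted p = 0.0583), and the mean of both probe sets gave -0.90 and kept the call (limma adjusted p = 0.00243). Both probe sets thus had the same sign at unlike sizes. They share 4 accessions, and whether the brighter one also detects another locus could not be checked here.

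*Cish* encodes CIS, which binds the IL-2 receptor and, in CD8+ T cells, restrains T cell receptor signaling through PLCγ1. It had a single probe set (10588577), at 7.46 and 7.23 in the Tc17 arrays, against 8.15 and 7.91 in the CTL arrays. The groups were separated by at least 0.45, against a gap of 0.23 between the Tc17 arrays and 0.24 between the CTL arrays. The log2 difference was -0.68 ± 0.14 (95% interval -1.0 to -0.37, limma adjusted p = 0.00745), the 531st largest decrease. The call was lost without CTL replicate 1 (-0.56, limma adjusted p = 0.0622) and without Tc17 replicate 2 (-0.57, limma adjusted p = 0.0638). Over the alternatives the adjusted p ran from 0.00179 to 0.109.

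**Figure D1:**
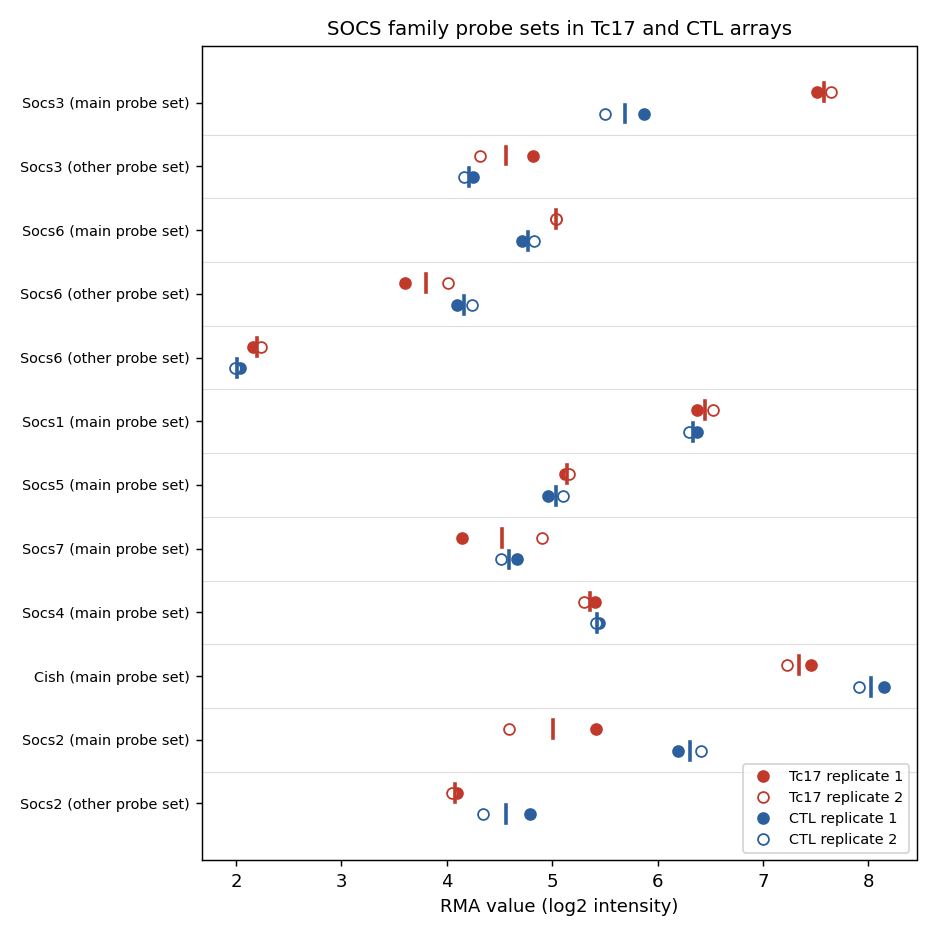
RMA values (log2 intensity, horizontal axis) of the 12 SOCS family probe sets. Circles are single arrays, red for Tc17 and blue for CTL, with replicate 1 filled and replicate 2 open. Vertical bars give the mean of each group. Levels of different probe sets are not comparable. The main *Socs3* probe set averaged 7.58 in Tc17 and 5.69 in CTL, and the main *Socs2* probe set 5.0 in Tc17 and 6.30 in CTL.

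*Socs1*, the strongest direct inhibitor of JAK kinases in the family and the main brake on IFN-γ signaling, had nearly the same level in both cultures. Its probe set (10437668) read 6.37 and 6.52 in the Tc17 arrays, against 6.37 and 6.30 in the CTL arrays. The lower Tc17 array and the higher CTL array were only 0.0026 apart. The log2 difference was 0.11 ± 0.13 (limma adjusted p = 0.654), and its 95% interval from -0.17 to 0.40 leaves room for a modest change either way. The interval does not reach the difference of *Socs3* (1.89) or that of *Cish* (-0.68).

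The members linked to growth factor receptors showed small differences. *Socs4* and *Socs5*, close relatives that have been tied to the EGF receptor, had log2 differences of -0.07 ± 0.13 (limma adjusted p = 0.790) and 0.10 ± 0.13 (limma adjusted p = 0.682). *Socs4* (10414350) read 5.41 and 5.31 in Tc17 against 5.44 and 5.41 in CTL, and *Socs5* (10447356) read 5.12 and 5.16 in Tc17 against 4.96 and 5.11 in CTL. The groups did not overlap in either gene, but the nearest arrays differed by only -0.0061 in *Socs4* and 0.012 in *Socs5*. Their 95% intervals, -0.35 to 0.21 and -0.18 to 0.39, included 0 and no change as large as that of *Cish*.

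*Socs7*, which was found as a partner of the adaptor NCK, was the only member whose groups overlapped. Its probe set (10380761) read 4.14 and 4.90 in the Tc17 arrays, so that Tc17 replicate 1 was the lowest and Tc17 replicate 2 the highest of the 4, against 4.66 and 4.52 in the CTL arrays. The log2 difference was -0.07 ± 0.21 (95% interval -0.52 to 0.39, limma adjusted p = 0.887), and its sign rested on single arrays. It was 0.31 without Tc17 replicate 1, -0.45 without Tc17 replicate 2 and 0.004 without CTL replicate 1, and none of these passed the threshold.

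*Socs6*, whose product binds activated KIT and takes part in its turnover, could not be given a direction. The main probe set (10566668) read 5.04 and 5.04 in the Tc17 arrays, against 4.71 and 4.83 in the CTL arrays. Its log2 difference was 0.27 ± 0.13 (95% interval -0.01 to 0.55, limma adjusted p = 0.210). A second probe set (10460118), annotated with the same 5 accessions, went the other way, at 3.60 and 4.01 in Tc17 against 4.09 and 4.24 in CTL. In the fit it gave -0.36 ± 0.16 (95% interval -0.70 to -0.02, limma adjusted p = 0.163). The last probe set (10460116) was below the filter level in every array, at 2.16 and 2.23 in Tc17 and 2.04 and 1.99 in CTL. The mean of the 3 gave 0.03. Which of the brighter probe sets reads *Socs6* alone could not be checked here.

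**Figure D2:**
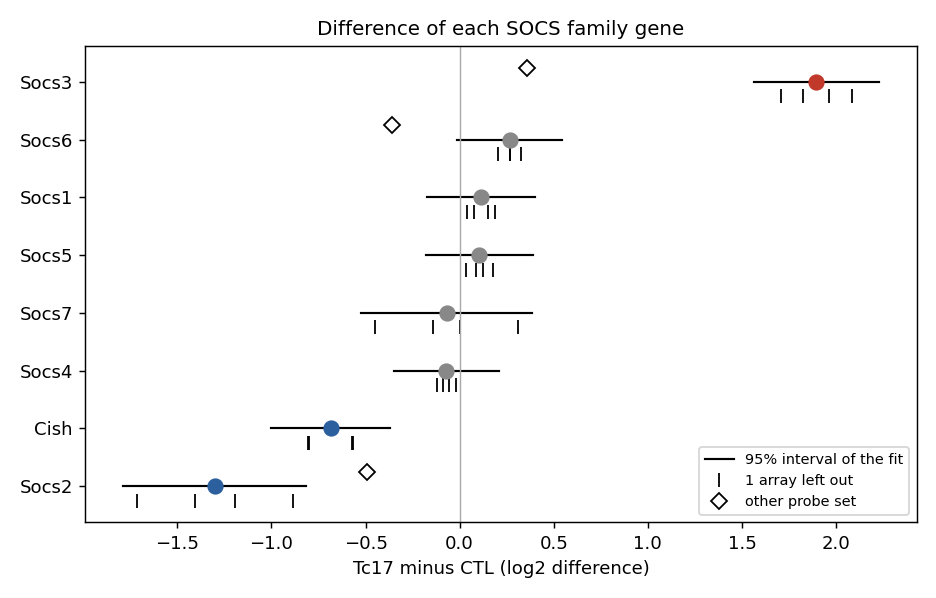
Log2 difference between Tc17 and CTL (horizontal axis) of the 8 SOCS family genes. Large circles are the main probe set, red where it rose, blue where it fell and grey where it did not pass the threshold, with horizontal lines for the 95% interval. Ticks show the value with 1 array left out and diamonds the other probe sets above the filter level. The 2 *Socs6* probe sets stood on opposite sides of 0, at 0.27 and -0.36.

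Ordered by their difference, the members ran from *Socs3* (1.89) through *Socs6* (0.27), *Socs1* (0.11), *Socs5* (0.10), *Socs7* (-0.07), *Socs4* (-0.07) and *Cish* (-0.68) to *Socs2* (-1.30). The interval of *Socs3* met none of the others. The intervals of the 5 members in the middle all overlapped each other, so their order is not fixed. Those of *Cish* (-1.0 to -0.37) and *Socs2* (-1.79 to -0.81) also overlapped. The interval of *Cish* overlapped that of *Socs7* as well, which was wide. With other probe sets the gap between the top and the bottom of the family narrowed, since the second *Socs3* and *Socs2* probe sets were at 0.36 and -0.49. At stricter limits taken from the study's RNA-seq methods (adjusted p under 0.01, absolute log2 difference over 0.75), *Socs3* and *Socs2* passed, against 6.15% of all genes.

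**Figure D3:**
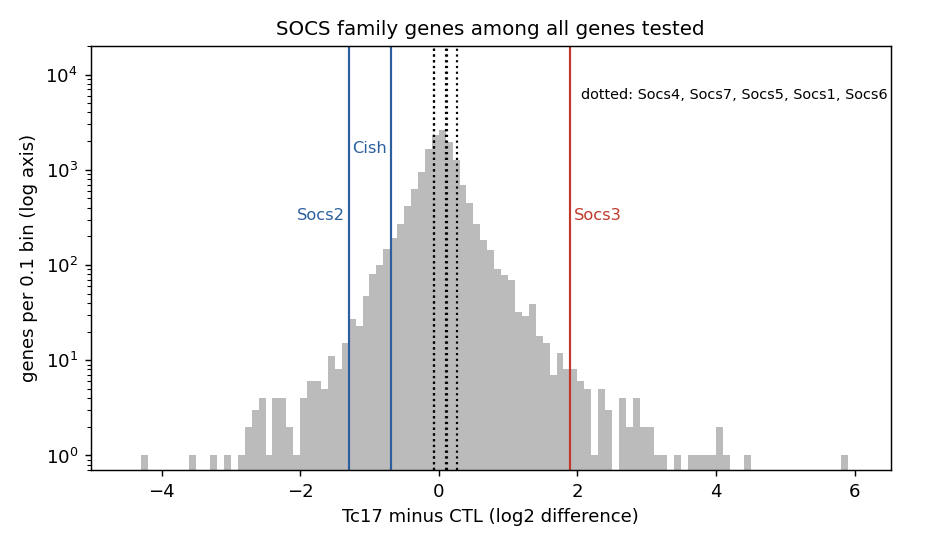
Number of genes (vertical axis, log scale) by log2 difference between Tc17 and CTL (horizontal axis, bins of 0.1) for the 14953 genes tested. Solid lines mark the members past the threshold, red for *Socs3* (1.89) and blue for *Cish* (-0.68) and *Socs2* (-1.30), and dotted lines mark the other 5, which lay between -0.07 and 0.27.

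The genes whose pattern over the 4 arrays was most like that of each called member were found by the distance between mean-centred log2 values, among 14017 genes. The closest to *Socs3* was *Il6st*, which encodes gp130, at a distance of 0.0856, followed by *Tnfsf10*, the gene of the death ligand TRAIL (0.167), and *Pik3ip1*, a PI3K inhibitor gene (0.195). *Il6st* read 6.82 and 6.98 in Tc17 against 5.16 and 4.90 in CTL. The closest to *Socs2* were *Znhit6* (0.226), the lipid transporter gene *Mfsd2a* (0.255) and the nucleolar *Gnl3* (0.288). Each of these also had its lower Tc17 value in replicate 2, as in *Gnl3*, at 6.85 and 6.29 in Tc17 against 7.84 and 7.76 in CTL. The closest to *Cish* were *Mtg1* (0.0328), *Setd6* (0.0474) and *Ibtk* (0.0476), whose differences lay between -0.73 and -0.67. With 4 arrays such distances mainly reflect the size of the group difference.

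The ligase that SOCS proteins recruit showed no gene past the threshold. None of its 6 genes was called by limma, with a median log2 difference of -0.20. At an unadjusted limma p under 0.05 there were 2, both lower in Tc17: *Cul5*, the scaffold subunit (-0.34), and *Rnf7*. The share of all genes at this unadjusted limit was not counted, so no decrease of the ligase can be read from these 2. The smaller p was that of *Rnf7*, the RING subunit (-0.45 ± 0.15, limma adjusted p = 0.0703). It read 4.03 and 4.42 in Tc17 against 4.69 and 4.66 in CTL, and passed without Tc17 replicate 2 (-0.64). Of 23 tested genes of other SOCS box proteins 3 rose and none fell, a share of 13% against 15.7% of all genes, so the count was not above the background: *Spsb3* (0.82 ± 0.13, limma adjusted p = 0.00169), *Spsb1* (0.60 ± 0.16, limma adjusted p = 0.0306) and *Wsb2* (0.51 ± 0.15, limma adjusted p = 0.0465). *Spsb1* lost its call without Tc17 replicate 1 (0.37) and also without either CTL replicate (0.70 without the first, 0.50 without the second), and *Wsb2* without CTL replicate 1 (0.34) or Tc17 replicate 1 (0.38). *Wsb2* also missed the threshold with the replicate number as a block (limma adjusted p = 0.0631), without the filter, after cyclic loess, after median centring and over all rows (limma adjusted p from 0.0503 to 0.252).

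Of 11 further brakes on cytokine receptors, among them the phosphatase genes *Ptpn1*, *Ptpn2*, *Ptpn6* and *Ptpn11*, 1 fell and 1 rose, or 18.2%, near the 15.7% of all genes. *Usp18*, an interferon-induced gene whose product blocks the type I interferon receptor, read 4.12 and 4.19 in Tc17 against 7.53 and 6.97 in CTL, an 8.52-fold decrease (limma adjusted p = 8.85e-07). This was larger than the decrease of *Socs2*. *Pias1*, which encodes a nuclear inhibitor of STAT signaling, rose by 0.55 ± 0.13 (limma adjusted p = 0.0166). It no longer passed without CTL replicate 2 (0.49) or Tc17 replicate 2 (0.45). Among the JAK and STAT genes *Jak1* (0.90 ± 0.13, limma adjusted p = 6.45e-04), *Stat3* (0.68 ± 0.14, limma adjusted p = 0.00603) and *Stat5b* (0.59 ± 0.13, limma adjusted p = 0.0105) rose and none of the 9 tested fell. At an unadjusted limma p under 0.05, *Jak2* was also higher, at 0.33, and 1 was lower, *Stat4*, at -0.41. The share of all genes at this limit was not counted, so nothing is read from these genes. *Stat5b* was lost without CTL replicate 2 (0.49) or Tc17 replicate 2 (0.59).

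Several receptors on which SOCS proteins act differed as well, in lists to be read against 8.22% of all genes higher and 7.44% lower. Of 7 tested receptor genes of the gp130 and IL-12 families, *Il6st*, *Il6ra* (1.81 ± 0.14, limma adjusted p = 9.09e-06) and *Il27ra* (0.59 ± 0.13, limma adjusted p = 0.00866) rose and *Il12rb2* fell (by 1.25 ± 0.20, limma adjusted p = 0.00173). *Il27ra* was lost without CTL replicate 1 (0.54) or Tc17 replicate 2 (0.56). Both chains of the IL-6 receptor, to which the SOCS3 target gp130 belongs, thus rose together with *Socs3*, *Il6st* by 1.88 ± 0.14 (limma adjusted p = 8.72e-06). Of 7 receptors of the common gamma chain family *Il7r* (1.59), *Il21r* (0.63) and *Il4ra* (0.59) rose and *Il15ra* fell (by 1.19), and *Il4ra* was lost without Tc17 replicate 2 (0.54). Both chains of the IFN-γ receptor rose, *Ifngr1* by 1.87 ± 0.16 and *Ifngr2* by 1.49 ± 0.14, whereas *Socs1*, the brake on this receptor, did not pass. Of 11 other partners of SOCS proteins, *Kit* (1.76), *Plcg1* (0.95) and *Igf1r* (0.79) rose and none fell, at limma adjusted p values of at most 0.00233.

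Other genes listed as targets of STAT3 or STAT5 went partly the same way as the called members. Both lists were chosen with earlier results of these data known, so their shares are not independent of these data. STAT activity was not measured, and its part in these differences was not tested. Of 9 tested STAT3 targets 4 rose, with *Il21* (3.21), *Bcl6* (2.01) and *Fosl2* (0.52) highest, and 2 fell, *Pim1* (-0.98) and *Nfil3* (-0.83), shares of 44.4% and 22.2% against 8.22% and 7.44% of all genes. *Il21* read 5.36 and 5.39 in Tc17, whereas both CTL arrays (2.13 and 2.20) were under the filter level of 2.59, so the size of its difference is uncertain and it was tested only because of its Tc17 values. The call of *Fosl2* was lost without Tc17 replicate 1 (0.44) and without either of the CTL arrays (0.57 without replicate 1 and 0.47 without replicate 2). Of 12 STAT5 targets 7 fell (58.3%, against 7.44% of all genes) and none rose, led by *Lta* (-2.67), *Gzmb* (-2.33) and *Tnfrsf4* (-1.30), with a median of -0.72 against 0.02 over all genes. *Il2ra*, which encodes the alpha chain of the IL-2 receptor and is itself a STAT5 target, did not pass (-0.26 ± 0.14, limma adjusted p = 0.246). *Pim1* counts in both the STAT3 and the STAT5 list.

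**Figure D4:**
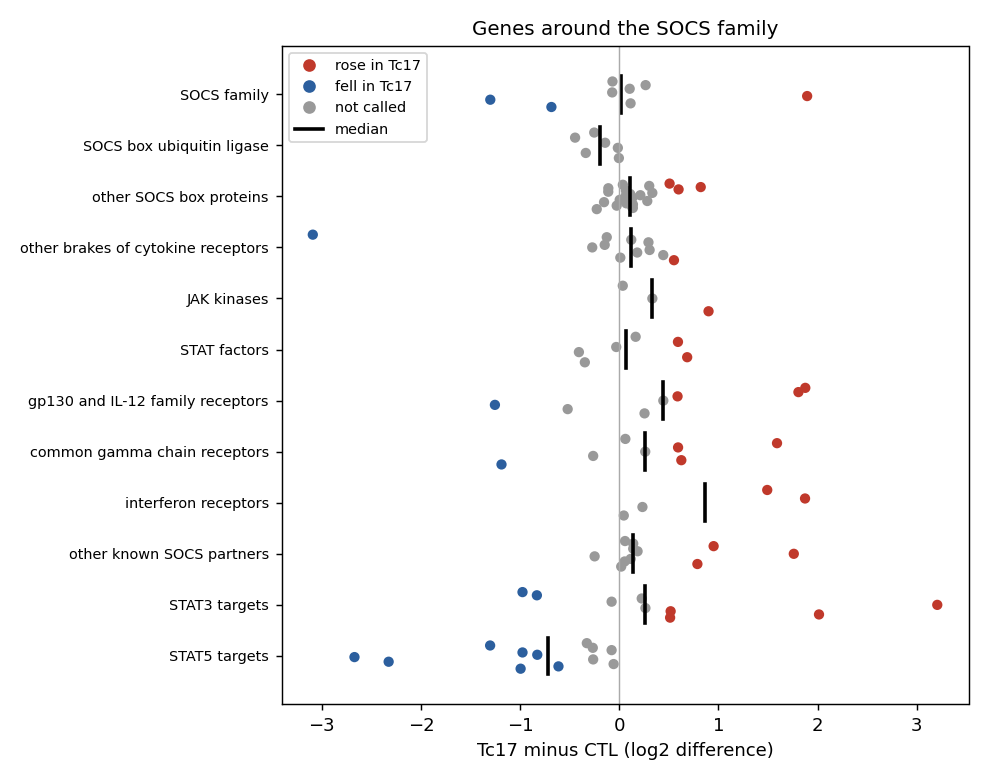
Log2 difference between Tc17 and CTL (horizontal axis) of each tested gene of the SOCS family and of 11 related gene lists. Genes past the threshold are red (higher in Tc17) or blue (lower in Tc17), the others are grey, and each black bar is the median of its list. The median was 0.02 for the SOCS family, -0.20 for the ubiquitin ligase genes and -0.72 for the STAT5 targets.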

How the data were processed

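The authors processed the arrays with RMA (background correction, quantile normalisation, summary per probe set) and deposited 1 value per probe set and array, from 1.18 to 13.7, taken here as log2. The RMA version, its settings and the base of the logarithm were not given in the sources used here. Quantile normalisation hides any shift of all transcripts, and background compresses differences of dim probe sets. Of 35557 rows, 21789 carried 1 symbol. For each of 19938 genes the brightest probe set was kept, and 14953 genes at or above the 25th percentile of the mean (2.59) were tested. The difference of Tc17 over CTL was fitted in R 4.3.3 with limma 3.58.1 (lmFit and eBayes), unpaired and two-sided, with Benjamini-Hochberg adjustment over all genes and a threshold of 0.05. The moderated variance drew on 8.98 prior and 2 residual degrees of freedom. Standard errors, intervals and p-values thus lean mostly on the spread pooled over all genes tested. The script was tested on simulated data. An exact permutation test of 2 against 2 arrays cannot go below 0.333. The number of arrays limits the precision. The 12 lists with 118 genes (114 with a probe set) and the members were chosen with earlier results of these data known. All members were named. From each list up to 3 genes with the largest increase and 3 with the largest decrease past the threshold were named, or the smallest p where none passed, and for each called member the 3 most similar genes. Other genes were named as label or cell type checks or after their values were seen. *Jak3* and 3 other listed genes were not analysed here, nor were protein sequences, and 1 further list is not reported here. Plots used Python 3.11.15, pandas 2.3.3 and matplotlib 3.10.9.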

Additional observations from a re-analysis of the deposited data

How the results depend on the processing

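*Socs3* kept its call in all 12 alternative settings, *Socs2* in 11 and *Cish* in 9, and *Socs1*, *Socs4*, *Socs5*, *Socs6* and *Socs7* passed in none. When all rows of the table were tested, dim and unannotated probe sets included, 684 rows passed (419 higher and 265 lower in Tc17) in place of 2342 genes, and 1 member passed, with 0 lower. There the adjusted p was 0.109 for *Cish* (-0.68) and 0.112 for *Socs2* (-1.30). At the thresholds of the study's RNA-seq 1 member was lower. With 1 array left out, 1421 to 1924 genes passed (834 to 948 higher and 587 to 976 lower), with 2 to 3 members, 1 of them higher and 1 to 2 lower. The lowest count was without Tc17 replicate 2, and 1538 genes passed without CTL replicate 1. *Cish* then ranged from -0.80 to -0.56, *Socs2* from -1.72 to -0.89, *Socs3* from 1.71 to 2.08 and *Socs7* from -0.45 to 0.31, changing sign without CTL replicate 1 (0.004) and without Tc17 replicate 1 (0.31). A fit without an array assumes that the lone sample of its group varies like the other group. Chosen after seeing the data, the other probe sets gave 0.36 for *Socs3*, -0.49 for *Socs2*, both no longer past the threshold, and -0.36 for *Socs6*, a reversal. The cause of these changes was not tested. Whether arrays of the same replicate number were paired is not stated. Deviations of the same number had r = 0.02, which cannot settle this, since paired samples need not share their deviations. With the replicate number as a block 2322 genes and 3 members passed, and it changed no call of a member, while *Wsb2* lost its call (adjusted p 0.0631). Of 360 values of 30 other named genes under the alternatives 326 kept their direction and side of the threshold, 32 lost the call, 13 of them over all rows, 2 gained it and 0 changed sign.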
